A study of Homo sapiens with 6 samples.

Results

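The genes described here encode plasma membrane carriers of amino acids, picked by name: SLC7A5, SLC7A11, SLC7A1, SLC3A2, SLC1A5, SLC1A4, SLC38A1, SLC38A2 and SLC6A9. SLC7A2, the other name of the 10 listed, was not analysed here. The 9 members each had at least 10 counts in a library and were taken from a table of 20333 gene intervals. All 9 passed the filter on low counts, as did 19902 intervals in all.

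The counts come from precision nuclear run-on sequencing (PRO-seq), which sequences the RNA that engaged polymerases extend in permeabilised cells, so a value reports polymerase activity over a gene rather than its steady RNA level. T47D cells were used, a long-established line of luminal breast cancer with the estrogen receptor and without HER2, obtained from ATCC. Every group had growth factor-complete medium, and cells were taken 5 h after treatment. The DMSO group received the solvent, the GDC0068 group 500 nM of an inhibitor of AKT catalysis, and the Degrader group 100 nM of INY-05-040, a compound that leads to loss of the AKT proteins. The doses differ because the submitters chose them for like suppression of downstream signalling. Each group has 2 libraries, numbered 1 and 2, and the series describes 2 independent experiments, so the model is 1 cell line at 1 time point.

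Amino acid carriers of the cell surface work as exchangers or as sodium-driven pumps. SLC3A2, the heavy chain of CD98, escorts light chains such as SLC7A5 (leucine and other large neutral amino acids) and SLC7A11 (cystine in, glutamate out) to the membrane. The transcription factor ATF4 raises many of these genes when amino acids are short or when mTORC1, which acts downstream of AKT, favours its translation. ATF4 binds with C/EBP partners at composite DNA elements, and amino acids delivered by the carriers in turn feed mTORC1.

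Promoter sequence is shown for 3 members: SLC38A2, which rose, SLC7A1, which fell, and SLC1A4, which has the same kind of element as SLC7A1. Sequences are those of RefSeq on GRCh38.p14, whose windows run from 250 bases before to 50 bases after a gene's start. A window with its start within 100 bases of the deposited start was found for 7 of the 9 members, and for 6 members the 2 starts were the same base. The window of SLC38A1 lay 960 bases away and was not used, and SLC7A11 was not matched. Below are the 250 bases before the start of SLC38A2 (chr12:46372774-46373023, minus strand) and of SLC7A1 (chr13:29595689-29595938, minus strand), followed by 30 bases around the element in SLC7A1 (chr13:29595663-29595692) and in SLC1A4 (chr2:64989381-64989410, plus strand). Capitals mark letters that match the C/EBP-ATF response element.
SLC38A2 upstream: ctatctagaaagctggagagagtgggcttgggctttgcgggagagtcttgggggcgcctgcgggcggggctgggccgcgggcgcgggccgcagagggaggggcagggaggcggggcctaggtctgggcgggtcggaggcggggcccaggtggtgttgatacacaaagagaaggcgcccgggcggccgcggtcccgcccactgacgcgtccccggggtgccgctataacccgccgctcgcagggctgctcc
SLC7A1 upstream: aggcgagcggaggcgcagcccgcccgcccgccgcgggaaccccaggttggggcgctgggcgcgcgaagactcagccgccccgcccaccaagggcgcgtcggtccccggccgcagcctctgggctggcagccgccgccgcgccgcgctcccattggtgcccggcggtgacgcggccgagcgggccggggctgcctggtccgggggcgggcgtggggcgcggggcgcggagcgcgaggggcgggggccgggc
SLC7A1 element: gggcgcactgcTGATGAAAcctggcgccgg
SLC1A4 element: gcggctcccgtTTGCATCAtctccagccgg

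The element was searched as TGATGNAA on both strands. It was found in 2 of the 7 member windows and in 3.62% of all 35116 promoter windows of 300 bases. In SLC7A1 it begins 7 bases after the RefSeq start, which is 45 bases before the start used in the deposited table. In SLC1A4 it reads on the opposite strand and begins 7 bases before the start. The E-box CACGTG, the core site of MYC and its relatives, was in the SLC7A5 window, against 7.26% of all windows. An antioxidant response element core, TGACNNNGC, was in the SLC7A5 and SLC7A1 windows, against 13.3% of all. The FOXO core GTAAACA was in 0 of the 7 windows, against 3.42% of all. A match describes letters in the window and does not show binding, and a window without a match says nothing of the factor.

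In the DMSO group the members differed widely in polymerase density. Levels between genes are given as CPM (counts per 1000000 counts of the library) divided by the interval length in kb, as mean ± SD over the 2 DMSO libraries. SLC7A5 had 20.4 ± 2.5 CPM per kb, SLC38A2 18.3 ± 1.7 and SLC3A2 18.1 ± 0.62. These 3 could not be ordered, because their DMSO libraries overlap between neighbours. SLC1A5 followed with 5.80 ± 0.096 CPM per kb and SLC38A1 with 3.35 ± 0.056. SLC1A4 had 0.995 ± 0.10, SLC7A1 0.846 ± 0.030, SLC6A9 0.747 ± 0.0077 and SLC7A11 0.175 ± 0.030 CPM per kb. From SLC3A2 downward, both DMSO libraries of each member lay above both of the next. In this density SLC7A5 stood at percentile 96.9 of all genes tested and SLC7A11 at percentile 6.0. Intervals were counted whole, so reads near the start and in the gene body are not separated.

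Libraries held 25371819 to 32192576 counts, and the lowest member count was 318, for SLC7A11, where counting error alone is 5.61%. Intervals that cover luminal markers were transcribed in all libraries: the 11 listed genes, among them ESR1, GATA3, FOXA1 and KRT19, summed to 5960 to 6300 CPM in DMSO, 6040 to 6320 under GDC0068 and 6300 to 6370 under Degrader. Of 7 basal or mesenchymal markers, ZEB1 was read and had 5.23 to 5.99 CPM per library. Of 4 leukocyte markers, CD68 was read and had 77.2 to 83.6 CPM in DMSO, 62.6 to 67.6 under GDC0068 and 55.1 to 64.4 under Degrader. The rest of these lists and the 5 fibroblast or endothelial markers had no interval under those names, so they were not analysed. The part of CD68 transcription in the results below was not tested. In such bulk counts, fewer cells transcribing a gene and fewer polymerases per cell cannot be told apart.

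**Figure D1:**
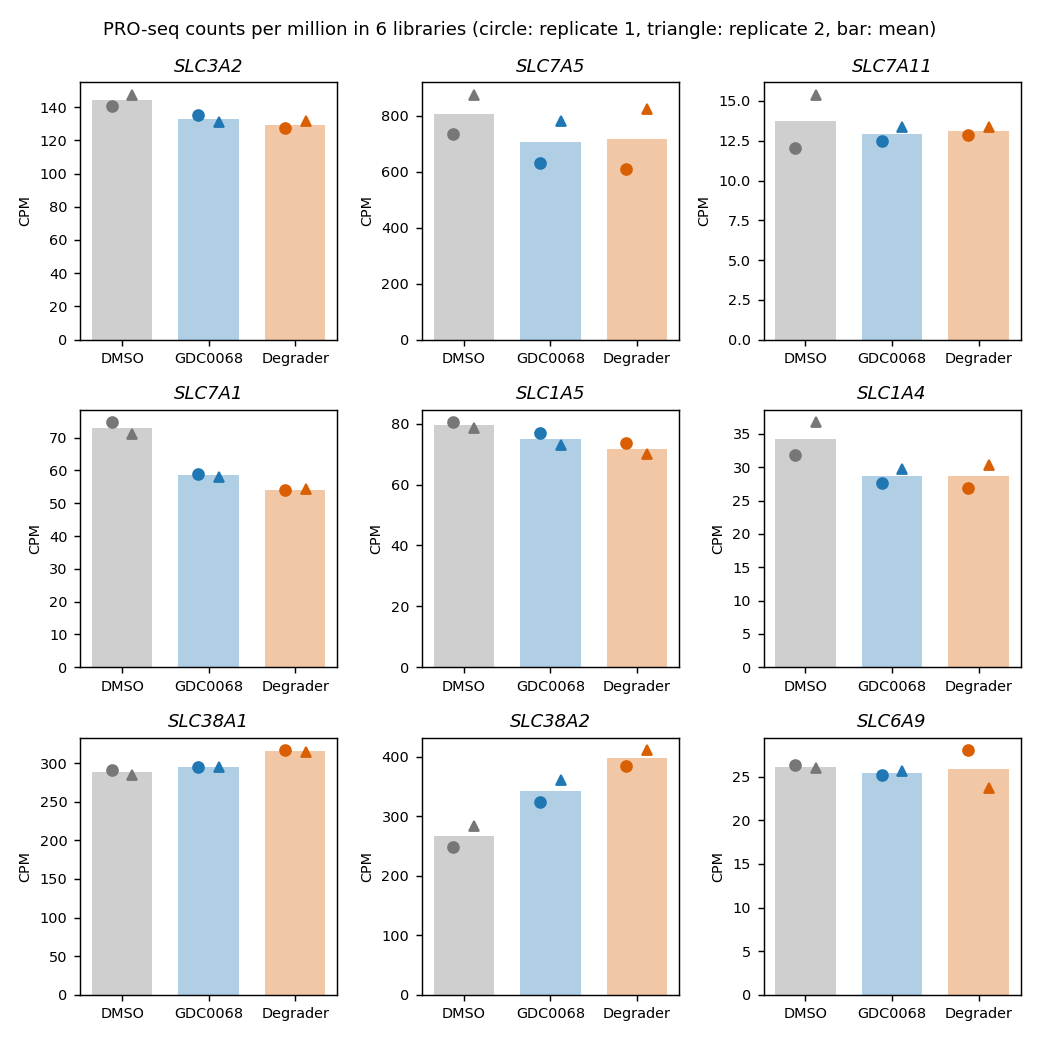
CPM (y axis, from 0) of the 9 transporter genes in the 6 libraries; circles are replicate 1, triangles replicate 2 and bars the mean of each group. SLC38A2 is higher and SLC7A1 lower in all 4 drug libraries than in both DMSO libraries, while SLC7A5 is higher in replicate 2 than in replicate 1 of every group.

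The 2 clearest responses ran in opposite directions. SLC38A2, a sodium-coupled importer of small neutral amino acids such as glutamine and alanine, rose 1.49-fold under Degrader and 1.29-fold under GDC0068. SLC7A1, the main carrier of arginine and lysine, fell by 25.9% under Degrader and fell by 19.8% under GDC0068. These were the members called in each comparison with DMSO, 1 higher and 1 lower, by the edgeR quasi-likelihood test at a Benjamini-Hochberg adjusted p under 0.05. That is 2 of 9 members under Degrader, where 15.3% of all genes were called (7.39% higher, 7.88% lower), and 2 of 9 under GDC0068, where 3.58% were (1.7% higher, 1.88% lower). With so few members the Degrader count is close to the background and is not read as a property of the group. The 2 comparisons share the DMSO libraries.

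SLC38A2 (ENSG00000134294, chromosome 12, 46358188 to 46372773, minus strand) gave 249 and 284 CPM in DMSO, 324 and 361 CPM under GDC0068, and 384 and 412 CPM under Degrader, in replicates 1 and 2. The 3 groups did not overlap, and the Degrader libraries were the highest. Relative to DMSO, Degrader gave a log2 fold change of 0.58 (SE 0.0742, 95% interval 0.42 to 0.74, edgeR adjusted p = 0.000693), and GDC0068 gave one of 0.36 (SE 0.0742, interval 0.20 to 0.53, edgeR adjusted p = 0.0258). Within replicate 1 and replicate 2 the Degrader change was 0.62 and 0.54, and the GDC0068 change 0.38 and 0.35. The Degrader change lay at percentile 98.1 of all genes tested. The GDC0068 call was lost without DMSO replicate 1 (0.27) and without GDC0068 replicate 2 (0.28). Fewer of all genes were called in those fits as well. An interval on the opposite strand, AC025031.2, overlaps 1232 bases at its start and was not called (log2 fold change 0.14 under Degrader, edgeR adjusted p = 0.463).

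SLC38A1 (ENSG00000111371, chromosome 12, minus strand), a paralog that also imports glutamine, is the nearest listed interval on one side, with 89.2 kb and no other interval between them. It gave 291 and 285 CPM in DMSO, 295 and 295 CPM under GDC0068, and 317 and 314 CPM under Degrader. The Degrader libraries lay above the other 4, by a small margin. The change under Degrader was 0.13 (SE 0.0499, interval 0.02 to 0.24) and missed the threshold (edgeR adjusted p = 0.0971). With the replicate number as a block it was called (0.13, edgeR adjusted p = 0.00427). Under GDC0068 it was 0.03 (interval -0.08 to 0.14, edgeR adjusted p = 0.762).

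SLC7A1 (ENSG00000139514, chromosome 13, 29509414 to 29595636, minus strand) gave 74.7 and 71.1 CPM in DMSO, 59.1 and 58.0 CPM under GDC0068, and 53.9 and 54.2 CPM under Degrader. All 4 drug libraries lay below both DMSO libraries, and the Degrader libraries were the lowest. Degrader gave a log2 fold change of -0.43 (SE 0.0535, interval -0.55 to -0.31, edgeR adjusted p = 0.000582), and GDC0068 one of -0.32 (SE 0.0534, interval -0.43 to -0.20, edgeR adjusted p = 0.0120). Within the replicates the Degrader change was -0.47 and -0.39, and the GDC0068 change -0.34 and -0.29. The GDC0068 call was lost without DMSO replicate 1 (-0.29) and without GDC0068 replicate 2 (-0.31), where fewer of all genes were called as well. No other interval of the table overlaps SLC7A1.

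**Figure D2:**
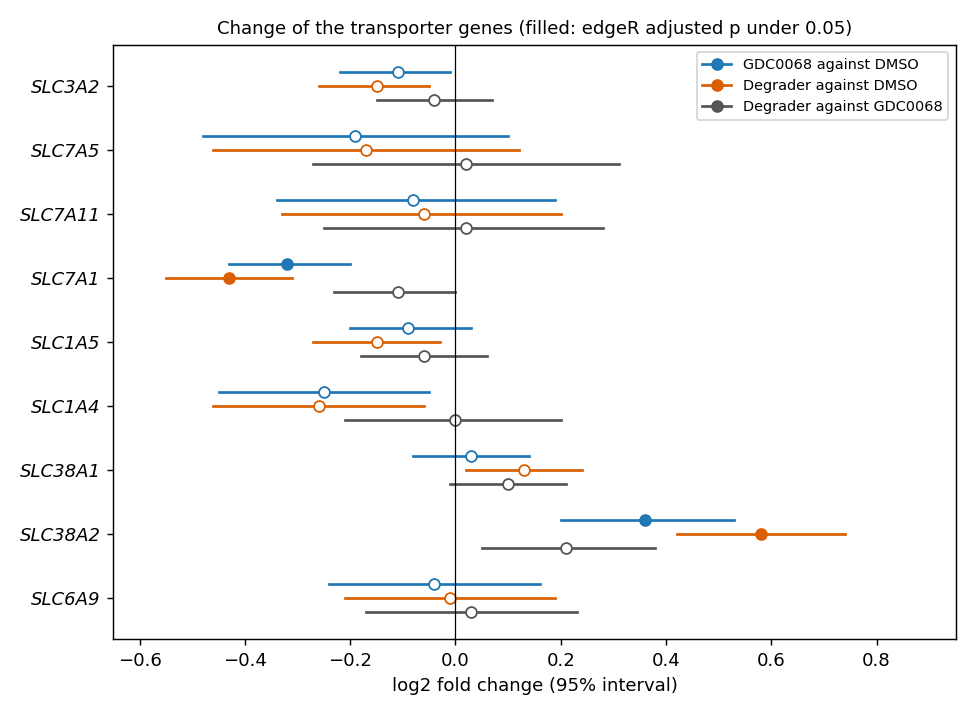
Log2 fold change (x axis) with its 95% interval for each transporter gene in the 3 comparisons, coloured by comparison; filled points have an edgeR adjusted p under 0.05. The filled points are those of SLC38A2, at 0.58 and 0.36, and of SLC7A1, at -0.43 and -0.32.

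Samples with the same replicate number deviated together, and entering the number as a block changed the calls. With the block, edgeR called 7 of 9 members under Degrader (2 higher, 5 lower), where it called 30.7% of all genes (15.1% higher, 15.7% lower), and 5 of 9 under GDC0068 (1 higher, 4 lower), where it called 17.8% (8.87% higher, 8.91% lower). Those lower under both drugs were SLC7A1, SLC7A5, SLC3A2 and SLC1A4, and SLC1A5 joined them under Degrader. SLC7A11 and SLC6A9 were not called in either fit or under either drug.

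SLC7A5 (ENSG00000103257, chromosome 16, 87830023 to 87869507, minus strand), the leucine carrier that pairs with SLC3A2, gave 734 and 876 CPM in DMSO, 631 and 781 CPM under GDC0068, and 611 and 823 CPM under Degrader. The groups overlap, but within each replicate both drug libraries were below DMSO. Replicate 2 exceeded replicate 1 by 0.25, 0.31 and 0.43 on the log2 scale in DMSO, GDC0068 and Degrader, where the median size of this gap over the 13897 genes with at least 10 CPM was 0.07, 0.08 and 0.07. Without the block the Degrader value was -0.17 (SE 0.133, edgeR adjusted p = 0.441), and the GDC0068 value was -0.19 (SE 0.133, edgeR adjusted p = 0.463), neither past the threshold. With it, the values were -0.18 (SE 0.0392, edgeR adjusted p = 0.00094) and -0.19 (SE 0.0392, edgeR adjusted p = 0.00086). Per replicate the Degrader change was -0.27 and -0.09 and the GDC0068 change -0.22 and -0.17. The unblocked Degrader value became 0.03 without Degrader replicate 1.

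SLC3A2 (ENSG00000168003, chromosome 11, 62880896 to 62888855, plus strand), the shared heavy chain, gave 141 and 148 CPM in DMSO, 135 and 131 CPM under GDC0068, and 127 and 131 CPM under Degrader. Both drug groups lay below DMSO and overlapped each other. Degrader differed from DMSO by -0.15 (SE 0.0494, edgeR adjusted p = 0.0561), and GDC0068 by -0.11 (SE 0.0494, edgeR adjusted p = 0.220). With the block it was called under both (-0.15, edgeR adjusted p = 0.00175; -0.12, edgeR adjusted p = 0.0277), and with robust estimation under Degrader (-0.15, edgeR adjusted p = 0.0442).

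SLC7A11 (ENSG00000151012, chromosome 4, 138164097 to 138242349, minus strand), the cystine light chain, did not share this pattern within both replicates. It gave 12.04 and 15.4 CPM in DMSO, 12.5 and 13.4 CPM under GDC0068, and 12.9 and 13.4 CPM under Degrader, so that the DMSO libraries enclosed all 4 others. Its change was -0.06 under Degrader (interval -0.33 to 0.20, edgeR adjusted p = 0.780) and -0.08 under GDC0068 (interval -0.34 to 0.19, edgeR adjusted p = 0.775). The Degrader change was 0.09 in replicate 1 and -0.21 in replicate 2, and both drug values turned positive without DMSO replicate 2 (0.12 and 0.11). The DMSO libraries differed by 0.35 on the log2 scale, where the drug groups' libraries differed by 0.10 and 0.05.

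The neutral amino acid exchangers of the SLC1 family lay below DMSO in all 4 drug libraries. SLC1A4 (ENSG00000115902, chromosome 2, 64989399 to 65023865, plus strand), a carrier of alanine, serine and cysteine, gave 31.8 and 36.8 CPM in DMSO, 27.6 and 29.8 CPM under GDC0068, and 27.0 and 30.4 CPM under Degrader. The drug libraries all lay below DMSO, and the drug groups overlapped. Degrader differed from DMSO by -0.26 (SE 0.0916, edgeR adjusted p = 0.0830), and GDC0068 by -0.25 (SE 0.0919, edgeR adjusted p = 0.152), both called with the block at -0.26 in each (edgeR adjusted p = 0.00405 and 0.00821). Without the block, the value under each drug was -0.15 without DMSO replicate 2 and -0.36 without DMSO replicate 1. Under Degrader it was -0.17 without Degrader replicate 1. SLC1A4 lies wholly inside LINC02245, a noncoding RNA interval on the opposite strand with 37.9 and 33.5 CPM in DMSO. In DMSO replicate 2 LINC02245 had 912 counts against 1000 for SLC1A4, so the longer interval did not take in all reads of the shorter one. LINC02245 changed by 0.20 under Degrader and was not called (edgeR adjusted p = 0.103).

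SLC1A5 (ENSG00000105281, chromosome 19, 46774883 to 46788594, minus strand), the glutamine exchanger of proliferating cells, gave 80.5 and 78.6 CPM in DMSO, 76.8 and 73.0 CPM under GDC0068, and 73.5 and 70.0 CPM under Degrader. Both drug groups lay below DMSO and overlapped each other. The change was -0.15 under Degrader (SE 0.0536, edgeR adjusted p = 0.0836; with the block -0.15, edgeR adjusted p = 0.00735). Under GDC0068 it was -0.09 (SE 0.0536, edgeR adjusted p = 0.396) and was not called with the block either (edgeR adjusted p = 0.160).

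SLC6A9 (ENSG00000196517, chromosome 1, 43996483 to 44031462, minus strand), a glycine carrier, gave 26.3 and 25.9 CPM in DMSO, 25.2 and 25.6 CPM under GDC0068, and 28.1 and 23.7 CPM under Degrader. The Degrader libraries lay on either side of all others. The change was -0.01 under Degrader (interval -0.21 to 0.19, edgeR adjusted p = 0.941) and -0.04 under GDC0068 (interval -0.24 to 0.16, edgeR adjusted p = 0.846). On the opposite strand SLC6A9 is overlapped by AL139220.2 (1329 bases, 847 and 726 counts in DMSO) and CCDC24 (46 bases). SLC7A5 and SLC38A1 are overlapped on the same strand by MIR6775 (195 bases) and AC025031.3 (1364 bases). AC008622.2 overlaps SLC1A5 on the opposite strand (1051 bases).

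Over the 9 members the median log2 fold change was -0.15 under Degrader and -0.09 under GDC0068, beside 0.00 and 0.01 over all genes tested. Both libraries of one group lay beyond both of the other in 6 members under Degrader, against 58.6% of all genes. Under GDC0068 this held for 7 members, against 50.1% of all genes.

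**Figure D3:**
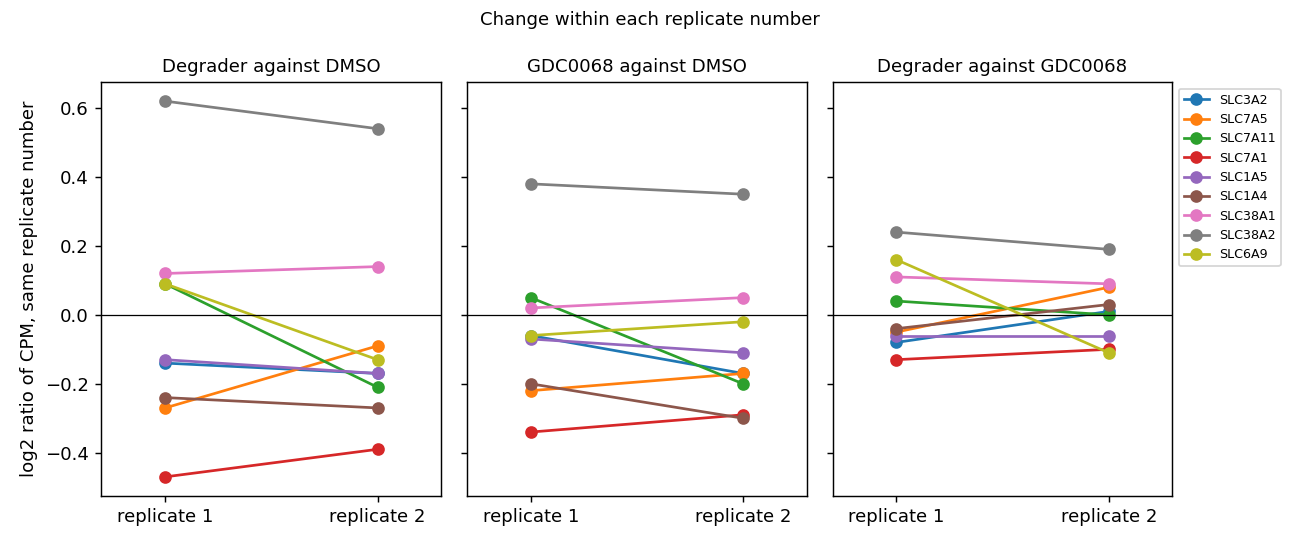
Log2 ratio of CPM between libraries with the same replicate number (y axis), for replicates 1 and 2 (x axis) and the 3 comparisons, with a line joining the values of each gene. SLC38A2 and SLC38A1 are above 0 and SLC7A1, SLC7A5, SLC3A2, SLC1A5 and SLC1A4 below 0 in both replicates against DMSO, while SLC7A11 is above 0 in replicate 1 and below it in replicate 2.

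Degrader and GDC0068 were then compared directly, at their different doses. edgeR called 0 of 9 members, with 0.266% of all genes called. DESeq2 also called 0, and 1 member, SLC38A2, had an unadjusted p under 0.05. SLC38A2 was higher under Degrader by 0.21 on the log2 scale (interval 0.05 to 0.38, edgeR adjusted p = 0.232), with changes of 0.24 and 0.19 in the replicates. With the block it was the member called (0.22, SE 0.0355, edgeR adjusted p = 0.000237), where 10.4% of all genes were called and 5.03% were higher under Degrader. SLC7A1 was lower under Degrader by a log2 fold change of -0.11 (interval -0.23 to 0.00, edgeR adjusted p = 0.371; with the block, edgeR adjusted p = 0.124). SLC38A1 differed by 0.10 (interval -0.01 to 0.21, edgeR adjusted p = 0.400). The other 6 members had values from -0.06 to 0.03. The intervals were -0.27 to 0.31 for SLC7A5, -0.21 to 0.20 for SLC1A4, -0.15 to 0.07 for SLC3A2 and -0.18 to 0.06 for SLC1A5. These intervals give the differences that the data leave possible, and do not show that the drugs act alike.

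The genes most like SLC38A2, the member with the largest change, were sought among 13896 others with at least 10 CPM. Likeness was the root mean square difference between log2 CPM profiles over the 6 libraries, each relative to the gene's DMSO mean. The median difference was 0.410. The closest were CFAP43 (0.0249), AL356124.1 (0.0281), ABTB1 (0.0380), C11orf98 (0.0423) and DNAJB4 (0.0432). CFAP43, a gene of cilia and flagella, changed by 0.59 under Degrader and 0.38 under GDC0068 (edgeR adjusted p = 0.000973 and 0.0317). C11orf98 changed by 0.59 and 0.33 (edgeR adjusted p = 0.000283 and 0.0211). AL356124.1, ABTB1 and DNAJB4 were called under Degrader (0.57, 0.56 and 0.53). Under GDC0068 they were not called (0.35, 0.35 and 0.34, edgeR adjusted p = 0.121, 0.108 and 0.136). These genes were picked for their profiles, so their values are a description.

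Other carriers of amino acids were mostly not called. Of 26 further carriers, listed by name for the plasma membrane without a check of site or substrate, 13 were tested. Of these 1, SLC7A8, rose under both drugs and 0 fell. Over all genes 7.39% rose and 7.88% fell under Degrader, and 1.7% and 1.88% under GDC0068. The list's median was -0.09 under Degrader and -0.03 under GDC0068. With the block, 2 rose and 2 fell under Degrader, where 15.1% of all genes rose and 15.7% fell. SLC7A8, another light chain of SLC3A2 with a range of neutral substrates, went from 93.0 ± 2.7 CPM in DMSO to 107 ± 1.6 under GDC0068 and 122 ± 4.5 under Degrader (SD, n = 2). Its log2 fold changes were 0.21 (edgeR adjusted p = 0.0455) and 0.40 (edgeR adjusted p = 0.000671). The GDC0068 call was lost in 10 of 12 alternatives, with edgeR or DESeq2 adjusted p from 0.0503 to 0.286.

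Among 8 tested lysosomal genes, a list that also holds the nucleoside carrier SLC29A3, 1 was higher under Degrader (7.39% of all genes). This was SLC38A9, an arginine sensor that acts on mTORC1, with a change of 0.20 (edgeR adjusted p = 0.0293) that was lost with DESeq2 (adjusted p = 0.0899) and when any 1 of the 4 DMSO and Degrader libraries was left out (edgeR adjusted p = 0.0744 to 0.194). With the block, 3 of the 8 were higher and 2 lower under Degrader (15.1% and 15.7% of all genes), and 1 higher under GDC0068 (8.87% of all). Without it 0 were called under GDC0068 by edgeR and by DESeq2, with 1 at an unadjusted p under 0.05. Of 11 mitochondrial carriers, 2 were higher and 4 lower under Degrader, beside 7.39% and 7.88% of all genes. Under GDC0068 0 were called by edgeR and by DESeq2, while 5 had an unadjusted p under 0.05 and 5 were lower with the block, beside 8.91% of all genes. DESeq2 called 1 higher and 2 lower under Degrader. The lower ones included SLC25A15, the ornithine carrier, at -0.50 (edgeR adjusted p = 0.00436), SLC25A39, which brings in glutathione, at -0.40 (edgeR adjusted p = 0.0388), and SLC25A29, for basic amino acids, at -0.21 (edgeR adjusted p = 0.0320). The SLC25A39 call was lost when any 1 of the 4 DMSO and Degrader libraries was left out (edgeR adjusted p = 0.0578 to 0.203). The SLC25A29 call was lost with DESeq2 (adjusted p = 0.0729) and without DMSO replicate 1, Degrader replicate 1 or Degrader replicate 2 (edgeR adjusted p = 0.254, 0.0820 and 0.181). Under Degrader the mitochondrial count was lower when any 1 DMSO or Degrader library was left out, and fewer of all genes were called too. The lysosomal count was not lower in every such fit: it was unchanged without DMSO replicate 1, although SLC38A9 lost its call there.

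Targets of ATF4 outside the carriers fell more often than they rose. Of 29 tested, 16 fell and 1 rose under Degrader, where 7.88% of all genes fell and 7.39% rose. The list's median was -0.26 beside 0.00 for all genes. With the block 18 fell and 5 rose, beside 15.7% and 15.1% of all genes: ATF3 (0.28), called in both fits, was joined by CTH (0.44), NUPR1 (0.27), MTHFD2 (0.16) and STC2 (0.16). Under GDC0068 5 fell and 0 rose, where 1.88% of all genes fell and 1.7% rose, with a median of -0.14. With the block, 14 fell and 3 rose under GDC0068, beside 8.91% and 8.87% of all genes. Leaving out any 1 DMSO or Degrader library lowered the Degrader count of lower genes, and fewer of all genes were called too. Leaving out any 1 DMSO or GDC0068 library did the same to the GDC0068 count. CBS, an enzyme that makes cystathionine from homocysteine and serine, changed by -0.84 under Degrader and -0.58 under GDC0068 (edgeR adjusted p = 0.00036 and 0.00955). VEGFA, the vascular growth factor, changed by -0.75 and -0.56 (edgeR adjusted p = 8.29e-05 and 0.00182). GPT2, a mitochondrial alanine aminotransferase, changed by -0.58 under Degrader and -0.33 under GDC0068 (edgeR adjusted p = 0.000401 and 0.0225). ADM2, a peptide hormone, changed by -0.55 and -0.46 (edgeR adjusted p = 0.0013 and 0.0140). The CBS and ADM2 calls under GDC0068 were each lost without DMSO replicate 1 (edgeR adjusted p = 0.0688 and 0.0738), DMSO replicate 2 (edgeR adjusted p = 0.0608 and 0.0980) or GDC0068 replicate 2 (edgeR adjusted p = 0.0567 and 0.0575), and ADM2 also without GDC0068 replicate 1 (edgeR adjusted p = 0.0555). SLC38A2 is a known ATF4 target as well, and its change had the opposite sign to this list's medians. Of the 9 members, 2 had positive changes under each drug, SLC38A2 and SLC38A1, and the rest had negative ones. The part of ATF4 in these changes was not tested.

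The gene of ATF4 itself was not called in any comparison without the block. ATF4 stood at 63.4 ± 3.4 CPM in DMSO, 66.4 ± 2.5 under GDC0068 and 57.8 ± 3.7 under Degrader (SD, n = 2). Its change was -0.13 under Degrader (edgeR adjusted p = 0.194; with the block edgeR adjusted p = 0.0273), 0.07 under GDC0068 (edgeR adjusted p = 0.594) and -0.20 between the drugs (edgeR adjusted p = 0.197; with the block edgeR adjusted p = 0.00508). ATF4 is controlled largely at translation, which PRO-seq does not measure. Of the 11 regulators listed, which also include MYC and NFE2L2, 0 were called by edgeR and 0 by DESeq2 under either drug, with 3 at an unadjusted p under 0.05 under Degrader and 2 under GDC0068. With the block, 4 were higher and 3 lower under Degrader (15.1% and 15.7% of all genes), and 2 higher and 1 lower under GDC0068 (8.87% and 8.91%). Without DMSO replicate 1, or without Degrader replicate 1, 1 was higher under Degrader.

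Genes that use or sense amino acids also moved in part. Among 19 genes of amino acid sensing upstream of mTORC1, 4 rose and 0 fell under Degrader, with a median of 0.09, where 7.39% of all genes rose. With the block 5 rose and 1, NPRL3, fell (-0.11, edgeR adjusted p = 0.0229), beside 15.1% and 15.7% of all genes. CASTOR2, a relative of the arginine sensor, rose by 0.53 (edgeR adjusted p = 2e-04), FNIP1, the partner of folliculin, by 0.39 (edgeR adjusted p = 0.000674) and BMT2, the sensor of S-adenosylmethionine, by 0.38 (edgeR adjusted p = 0.00258). Under GDC0068 CASTOR2 was the gene called (0.30, edgeR adjusted p = 0.0159), where 1.7% of all genes rose. With the block 4 rose (8.87% of all genes). In glutamine and glutamate metabolism, 3 of 12 rose and 2 fell under Degrader, beside 7.39% and 7.88% of all genes, with a median of -0.12. Fewer of this list were called when any 1 DMSO or Degrader library was left out, and fewer of all genes were called too. Under GDC0068 1 rose (1.7% of all genes), and with the block 2 rose and 1 fell (8.87% and 8.91% of all). GLUL, which makes glutamine, went from 105 ± 2.7 CPM in DMSO to 134.5 ± 1.5 CPM under Degrader (SD, n = 2), a rise of 0.35 (edgeR adjusted p = 0.00159), and rose by 0.27 with GDC0068 (edgeR adjusted p = 0.0223). GLUD1, glutamate dehydrogenase, had a rise of 0.34 with Degrader (edgeR adjusted p = 0.00164). PYCR3, of proline synthesis, changed by -0.59 (edgeR adjusted p = 0.00433; without DMSO replicate 1, edgeR adjusted p = 0.0564). The CASTOR2 and GLUL calls under GDC0068 were each lost without DMSO replicate 1, DMSO replicate 2 or GDC0068 replicate 2. Fewer of all genes were called in those fits as well. Of 8 tested genes of cystine and glutathione handling, which SLC7A11 supplies, 0 were called by edgeR and 0 by DESeq2 under either drug. At an unadjusted p under 0.05 there was 1 under Degrader, higher with the block, and 0 under GDC0068.

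**Figure D4:**
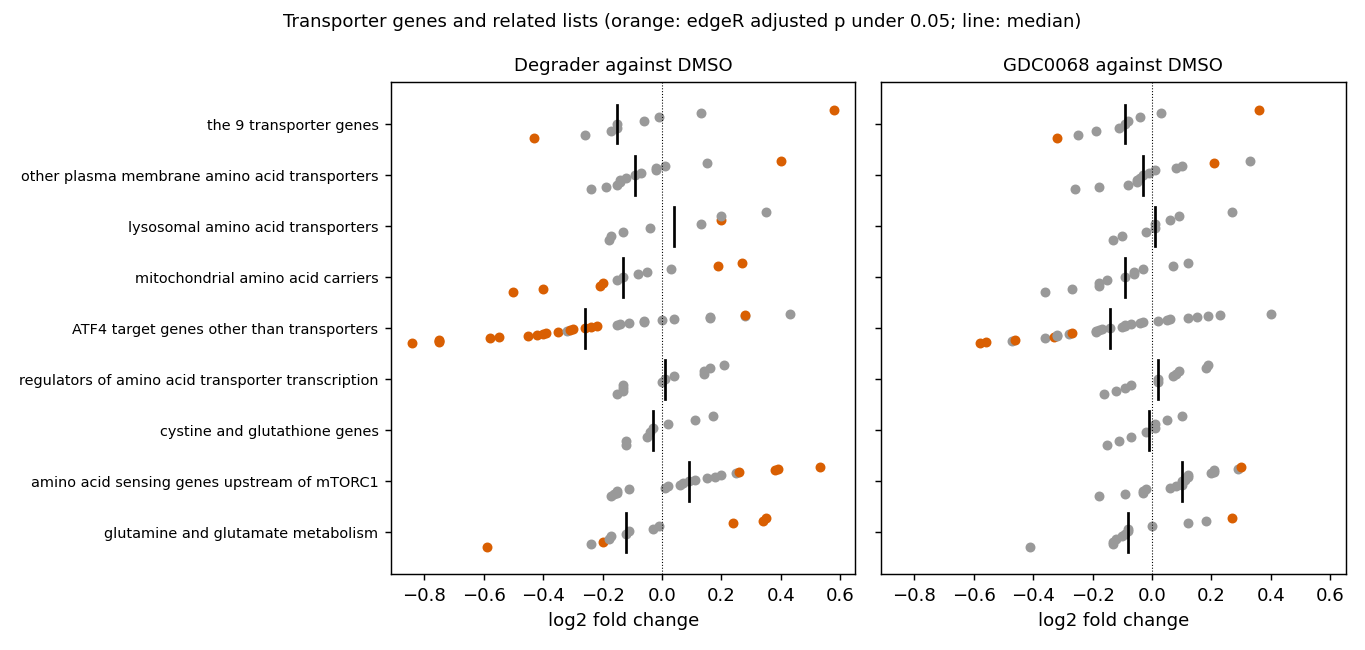
Log2 fold change (x axis) of the 9 transporter genes and of each related list under Degrader and GDC0068, 1 point per gene and a black line at the median; orange points have an edgeR adjusted p under 0.05. The list of ATF4 targets has a median of -0.26 under Degrader, and SLC38A2 is the rightmost point of the top row, at 0.58.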

How the data were processed

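The authors deposited whole-number counts of PRO-seq reads per gene interval in 1 table of 6 libraries, which holds positions, symbols and Ensembl identifiers. The submitters' processing notes name cutadapt 1.14, Bowtie 1.2.2, SAMtools 1.3.1, HISAT2 2.2.1 and limma, and the builds hg38, GRCh38 and dm3, with no role for each. How reads were assigned to intervals and strands, and any use of fly reads for scaling, are not given in the sources used here. Values here are therefore relative to the other genes of a library.

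Genes were filtered with filterByExpr (minimum count 10, minimum total 15), normalised by TMM (factors 0.997 to 1.00) and tested in 1 quasi-likelihood fit of all 6 libraries (3 residual degrees of freedom) with edgeR 4.0.16 in R 4.3.3. P-values were adjusted by the Benjamini-Hochberg method over all 19902 intervals. The filter removed 431 intervals. CPM are counts scaled to the TMM-adjusted library size. Alternatives were the replicate block, DESeq2 1.42.0, its size factors in edgeR, no filter, robust estimation, a fit of the 4 libraries compared, and leaving out each library. The fit was tested on simulated counts first.

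Group and replicate came from the labels. In the block and in the changes within replicates, replicate numbers were taken to pair the samples. The main fit had no term for the number, so its SE values hold any spread that same-numbered samples share. The pairing was used because the series describes 2 independent experiments and same-numbered samples deviated together (r = 0.419 for DMSO and GDC0068, 0.492 for DMSO and Degrader, 0.425 for the drugs, across 13897 genes, which are not independent). Nothing says outright that a number is an experiment. Genes named beyond the members were the called genes of each list with the lowest adjusted p, up to 3 per comparison, ATF4, and the 5 genes closest to the member with the largest change. ATF3, CTH, NUPR1, MTHFD2, STC2 and NPRL3 were named after their values were seen. Members and lists were chosen with earlier results of these data known. GGT1, which has more than 1 interval, was left out. Promoter windows are RefSeq's on GRCh38.p14.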

Additional observations from a re-analysis of the deposited data

How the results depend on the processing

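With the replicate block, the members called were 7 (Degrader against DMSO), 5 (GDC0068 against DMSO) and 1 (Degrader against GDC0068), and the genes of the other lists called rose from 34 to 59, from 8 to 34 and from 0 to 18. Robust estimation called 13 such genes under GDC0068. Leaving out 1 library at a time gave 2 members called in each Degrader fit, 0 to 2 under GDC0068 and 0 between the drugs, and 16 to 34, 1 to 8 and 0 genes of the other lists. SLC38A2 and SLC7A1 kept their calls under Degrader in all 12 alternatives. The signs that turned were all of members not called in the main fit, though SLC7A5 was called against DMSO with the block. Against DMSO under Degrader they were SLC7A5 (-0.41 to 0.03, the latter without Degrader replicate 1), SLC7A11 (-0.24 to 0.12, without DMSO replicate 2) and SLC6A9 (-0.14 to 0.09, without Degrader replicate 2), and under GDC0068 SLC7A11 (-0.25 to 0.11, without DMSO replicate 2). Between the drugs they were SLC7A5 (-0.12 without GDC0068 replicate 1, -0.21 without Degrader replicate 2, otherwise up to 0.23), SLC7A11 (-0.03 and -0.01 without the same libraries, otherwise up to 0.07) and SLC6A9 (-0.09 without Degrader replicate 1, otherwise up to 0.14). SLC1A4, at 0.00 between the drugs, ran from -0.09 without Degrader replicate 2 to 0.09 without Degrader replicate 1. The block accounts for spread shared by same-numbered samples; beyond that, the cause of these changes was not tested. With 2 libraries per group, 1 of them left out makes the lone library borrow its spread from the other groups, and SLC7A11 has the fewest counts. Over all genes tested, too, fewer were called against DMSO when 1 library of the comparison was left out.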
